A study of Homo sapiens with 6 samples.

Results

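Focal adhesions are the plaques at which integrins join the extracellular matrix to actin filaments. Talins and kindlins bind the integrin tails, adaptors such as paxillin and zyxin assemble around them, and crosslinkers, assembly factors and non-muscle myosin build and tension the attached filaments. In epithelial cancer lines this machinery is known for its part in spreading, migration and the sensing of matrix stiffness. The members described here were 39 genes of this machinery, taken by name: 15 adhesion plaque genes, 12 actin regulators and crosslinkers, and 12 contractile genes. Each was read from the brightest of its probe sets over 6 arrays, a probe set being the group of short array probes made for a transcript. Of the 39 members, 37 had a probe set that carried their symbol alone, among 19775 genes so measured, and 33 had a mean of at least 4 on the deposited log2 scale and were tested. These 33 were 13 plaque genes, 11 actin regulators and crosslinkers, and 9 contractile genes. FLNA, which encodes the crosslinker filamin A, and TPM3, a tropomyosin, are not analysed here. The parvin gene PARVB, the adaptor LIMS1, the calponin CNN1 and TAGLN were measured but too dim to test.

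The study asked what changes in gene expression when RBP2 is depleted. RBP2 is an older name of KDM5A, an enzyme that removes methyl groups from lysine 4 of histone H3 and binds the retinoblastoma protein. All 6 arrays came from H1299, an established human lung cancer line, infected with lentivirus and harvested after 72 hours. The 3 groups of 2 arrays carried a scramble shRNA, the RBP2 shRNA KD1 or the RBP2 shRNA KD2. These are called scramble, shRNA 1 and shRNA 2 here. The control cells had thus also been infected and also expressed an shRNA, and uninfected cells were not analysed here. The labels say nothing of selection for infected cells. They also leave unsaid whether replicates were grown apart, so every p-value here weighs differences against the scatter of these samples alone, and that scatter may be technical. RNA came from whole cultures, so a change in every cell and a larger change in some of the cells cannot be told apart.

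KDM5A was at 9.35 and 9.42 in scramble, 7.42 and 7.27 with shRNA 1, and 6.66 and 6.72 with shRNA 2, on the log2 scale on which a step of 1 is a 2-fold change. It fell by 2.04 with shRNA 1 and by 2.69 with shRNA 2 (SE 0.11 each; adjusted p 0.00475 and 0.00237), and it stayed 0.65 higher with shRNA 1 than with shRNA 2 (adjusted p 0.0101). With the brightest KDM5A probe set that is not of a kind prone to cross-hybridise, this last difference was 0.30 and not called (adjusted p 0.158). The arrays were alike in their overall values, with medians of 8.49 to 8.56 over the tested genes and 37.7% to 38.7% of each array at the lowest deposited value, 2.24. The epithelial keratin genes KRT8 and KRT18 and the mesenchymal filament gene VIM were at 9.80 to 15.04 in all arrays. All 5 endothelial markers and the 4 measured blood cell markers were below 3. Among 6 fibroblast markers COL1A1 alone had a mean of at least 4, with values of 6.20 to 7.02. Contractile genes are also carried by smooth muscle, so its 7 markers were read too. ACTA2 and SMTN were above 4 in every array, while MYH11, ACTG2, DES and LMOD1 were below 3 and CNN1 stood at 2.24 throughout. The summed log2 level of the 7 was 22.7 to 23.1 in scramble, 23.0 to 23.3 with shRNA 1 and 22.1 to 22.5 with shRNA 2.

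The RNA of several core adhesion and stress fibre proteins changed, and members of the same structure went in different directions. Paxillin, caveolin 1 and calponin 3 RNA fell with shRNA 2, while zyxin, PDLIM7, calponin 2 and myosin light chain 9 RNA rose. With shRNA 1, the coronin CORO1C and the myosin heavy chain MYH10 fell instead, and paxillin differed from scramble by 0.05. Called means an adjusted p under 0.05 in limma, adjusted by Benjamini-Hochberg over all 10526 tested genes. With shRNA 2 against scramble, 17 of the 33 members were called (51.5%), 11 higher and 6 lower, where 31.0% of all tested genes were called, 16.7% higher and 14.4% lower. With shRNA 1 against scramble, 6 were called (18.2%), 2 higher and 4 lower, where 11.5% of all genes were called, 3.62% higher and 7.9% lower. In the mean of both shRNAs against scramble, 13 were called (39.4%), 8 higher and 5 lower, where the background was 12.5%, 5.61% higher and 6.92% lower. In shRNA 1 against shRNA 2, 23 were called (69.7%), 7 higher and 16 lower with shRNA 1. There the background was 41.1%, 17.8% higher and 23.3% lower. The members were chosen with earlier results of these data known, so an excess over the background is no test of the set.

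All comparisons with scramble use the same control arrays, so their counts are not independent of each other. Without the replicate block, TES and CNN2 were called in the same direction with both shRNAs, and CORO1C and ENAH in opposite directions. With it, ZYX, BCAR1, CAV1 and PDLIM7 were also called in the same direction with both, and ILK, PDLIM1 and TPM4 in opposite directions. Without the block another 2 members, ILK and MYH10, were called with shRNA 1 alone and 13 with shRNA 2 alone. All of these but LPP and BCAR1 were also called in the test between the shRNAs. The median log2 difference of the tested members was 0.34 with shRNA 2 and -0.13 with shRNA 1, where the median of all tested genes was 0.08 and 0.00. Their median absolute difference was 0.67 and 0.32, against 0.39 and 0.28 for all tested genes. Same-numbered replicates deviated together in these arrays. With the replicate number as a block the members called were 21 in the mean (background 34.9%), 15 with shRNA 1 (29.6%), 26 with shRNA 2 (50.6%) and 27 between the shRNAs (57.7%), and no call was lost.

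With 2 arrays a group, counts depended on single arrays. In the mean comparison the 13 calls became 6 without shRNA 1 replicate 1 and 0 when any 1 of the other 5 arrays was left out, although 13 to 17 members then had an unadjusted limma p under 0.05. Over all tested genes the 1318 calls in the mean likewise became 457 without shRNA 1 replicate 1, 7 without shRNA 1 replicate 2 and 0 without any other single array. With shRNA 1 the 6 calls became 0 without either scramble array (9 and 12 members at an unadjusted limma p under 0.05; 0 of all tested genes were called either), 1 without either shRNA 1 array and 2 without either shRNA 2 array. With shRNA 2 and between the shRNAs, fewer members were called whichever single array was left out. The calls over all tested genes fell as well in both comparisons. None of the 13 calls in the mean, or of the 6 with shRNA 1, held under every leave-out. The shRNA 1 calls of TES, ILK, ENAH and CNN2 were lost whichever single array was left out. Whichever single array was left out, 9 members stayed called with shRNA 2: PXN, ZYX, TLN1, TLN2, CAV1, PDLIM7, CNN2, CNN3 and MYL9. The members that stayed called between the shRNAs were PXN, ZYX, TLN1, TLN2, ILK, CORO1C, ENAH, PDLIM7, CNN3, MYL9 and MYH10. TLN2 was tested only because of its high shRNA 2 arrays, under a filter set on all 6 arrays. Its place in both lists therefore carries no weight. TLN1 stands in both by its brightest probe set, and its other probe set above the minimum gave the opposite sign.

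**Figure D1:**
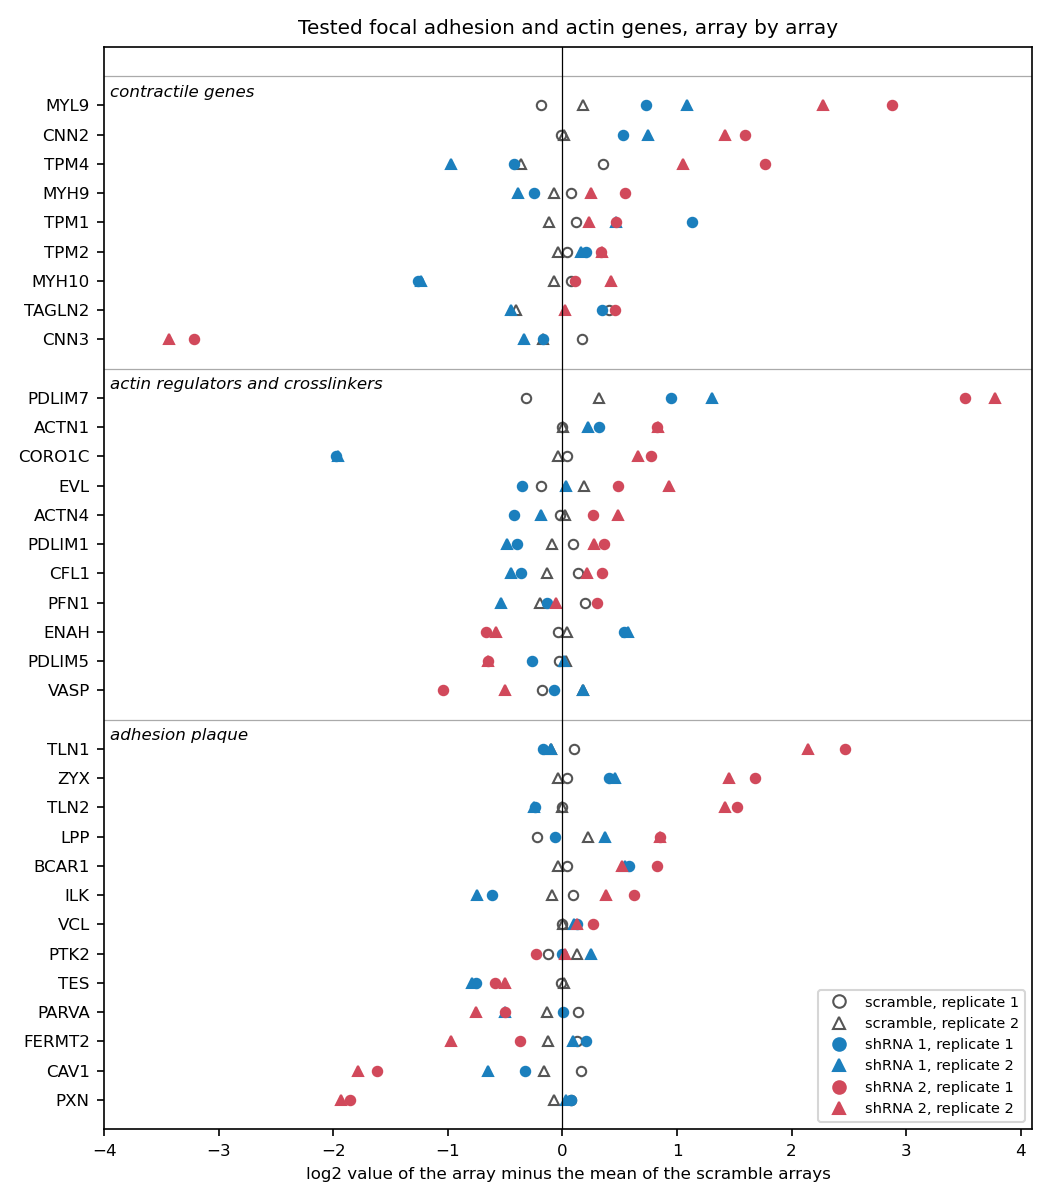
Each point is 1 array's log2 value of a tested member minus the mean of the scramble arrays, by role and in order of the shRNA 2 difference; open symbols are scramble, filled blue shRNA 1 and filled red shRNA 2. The red points of PDLIM7, MYL9 and TLN1 lie farthest to the right and those of CNN3, PXN and CAV1 farthest to the left, while for CORO1C and MYH10 the blue points lie far to the left.

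In the adhesion plaque, 8 of 13 tested genes were called with shRNA 2, 5 higher and 3 lower, and 2 with shRNA 1, both lower. Of all tested genes 31.0% were called with shRNA 2, 16.7% higher and 14.4% lower, and 11.5% with shRNA 1, 7.9% lower. PXN encodes paxillin, the scaffold on which focal adhesion kinase and parvins dock. It read 9.62 and 9.48 in scramble, 9.63 and 9.58 with shRNA 1, and 7.70 and 7.62 with shRNA 2. Both shRNA 2 arrays lay far below the other 4, and those 4 overlapped. The fall with shRNA 2 was 3.71-fold (log2 -1.89, SE 0.11, adjusted p 0.00254), the difference with shRNA 1 was 0.05 (adjusted p 0.807), and the shRNAs differed by 1.94 (adjusted p 0.00116).

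ZYX encodes zyxin, a LIM protein that recruits VASP-family proteins to stretched stress fibres. Its values were 7.14 and 7.06 in scramble, 7.50 and 7.55 with shRNA 1, and 8.78 and 8.55 with shRNA 2. The groups did not overlap and shRNA 2 was highest. With shRNA 2 it rose 2.96-fold (log2 1.57, SE 0.12, adjusted p 0.00333), and the 0.43 with shRNA 1 was called only with the replicate block (adjusted p 0.093, 0.0427 blocked). ZYX was 1.14 lower with shRNA 1 than with shRNA 2 as a log2 value (log2 -1.14, adjusted p 0.00311). A second probe set of ZYX gave 2.00 with shRNA 2.

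CAV1 encodes caveolin 1, the coat protein of caveolae, which also associates with adhesion signalling. It read 13.46 and 13.15 in scramble, 12.98 and 12.65 with shRNA 1, and 11.68 and 11.52 with shRNA 2. All shRNA arrays were below both scramble arrays, and shRNA 2 was lowest. It fell 3.26-fold with shRNA 2 (log2 -1.71, SE 0.18, adjusted p 0.00498), the -0.49 with shRNA 1 was called only with the block (adjusted p 0.151, 0.0238 blocked), and the shRNAs differed by 1.22 (adjusted p 0.00652).

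TES encodes testin, a LIM protein that binds zyxin and Mena. It was at 10.04 and 10.06 in scramble, 9.30 and 9.27 with shRNA 1, and 9.47 and 9.55 with shRNA 2. Here both knockdown groups lay below scramble. The fall was 0.77 with shRNA 1 (1.71-fold lower, adjusted p 0.0177) and 0.55 with shRNA 2 (1.46-fold lower, adjusted p 0.0171; SE 0.10 each), and the difference between the shRNAs of -0.23 was not called (adjusted p 0.137). With the mean of all 3 TES probe sets the shRNA 2 call was lost (log2 -0.33, adjusted p 0.0843). That mean includes a probe set at the floor of 2.24 in every array. The other TES probe set above the minimum gave -0.44 with shRNA 2.

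ILK encodes integrin-linked kinase, the pseudokinase that links the integrin tail to parvins. It was at 8.71 and 8.53 in scramble, 8.01 and 7.87 with shRNA 1, and 9.24 and 9.00 with shRNA 2. The shRNA 1 arrays were the lowest and the shRNA 2 arrays the highest, with no overlap. The fall with shRNA 1 was 0.68 (SE 0.14, adjusted p 0.0463), and this call was lost with the arrays centred on their medians (log2 -0.64, adjusted p 0.0542). The 0.50 with shRNA 2 was called only with the block (adjusted p 0.0529, 0.0104 blocked), and the shRNAs differed by -1.18 (adjusted p 0.004).

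Among the adaptors, BCAR1 encodes p130Cas, a substrate of Src and focal adhesion kinase. It read 7.15 and 7.07 in scramble, 7.69 and 7.65 with shRNA 1, and 7.93 and 7.63 with shRNA 2. Every knockdown array was above both scramble arrays, while the knockdown groups overlapped. It rose by 0.67 with shRNA 2 (SE 0.14, adjusted p 0.0225) and by 0.62 in the mean of both (SE 0.12, adjusted p 0.038). The 0.57 with shRNA 1 was called only with the block (adjusted p 0.0655, 0.0234 blocked), and the mean call was lost with the mean of its probe sets (adjusted p 0.0526).

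LPP, a zyxin relative, read 9.67 and 10.12 in scramble, 9.83 and 10.27 with shRNA 1, and 10.75 in both shRNA 2 arrays. Scramble and shRNA 1 overlapped, and shRNA 2 stood above both. The rise with shRNA 2 was 0.85 (SE 0.22, adjusted p 0.0401). This call was lost with the mean of all 8 LPP probe sets, of which 4 reached the minimum (log2 0.52, adjusted p 0.0862). With the block LPP was also called in the mean of both (0.50, adjusted p 0.14, 0.0399 blocked) and between the shRNAs (-0.70, adjusted p 0.056, 0.0146 blocked).

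FERMT2, the kindlin that helps talin switch integrins on, was at 11.38 and 11.12 in scramble, 11.45 and 11.34 with shRNA 1, and 10.87 and 10.28 with shRNA 2. The shRNA 2 arrays were lowest, and the other groups overlapped. FERMT2 was 0.82 higher with shRNA 1 than with shRNA 2 (SE 0.23, adjusted p 0.0404), a call lost with the mean of its probe sets (0.55, adjusted p 0.0989). The -0.67 with shRNA 2 was called only with the block (adjusted p 0.0807, 0.0182 blocked).

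The talin genes had readings that rest on the probe set or on the filter. TLN1 encodes talin 1, the main link from integrin tails to actin. Its brightest probe set read 6.03 and 5.83 in scramble, 5.76 and 5.83 with shRNA 1, and 8.40 and 8.08 with shRNA 2. By this probe set it rose 4.94-fold with shRNA 2 (log2 2.30, SE 0.16, adjusted p 0.00315) and the shRNAs differed by -2.44 (adjusted p 0.0013). The other TLN1 probe set read 5.71 in both scramble arrays, 5.40 and 5.71 with shRNA 1, and 4.78 and 5.56 with shRNA 2, which is -0.54 with shRNA 2 and 0.38 between the shRNAs. The direction for TLN1 therefore depended on the probe set.

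TLN2, its paralogue, was at 3.75 in both scramble arrays, 3.51 and 3.50 with shRNA 1, and 5.27 and 5.17 with shRNA 2. Only the shRNA 2 arrays were above the minimum of 4, and TLN2 was tested only because of them. Its rise of 1.47 with shRNA 2 (SE 0.10, adjusted p 0.00321) is counted above with that limit, since a gene let in by its high group had to differ.

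Plaque genes called in none of the comparisons were vinculin, focal adhesion kinase and a parvin. VCL encodes vinculin, which reinforces the talin-actin link under load, and it kept to 12.17 to 12.44 over all 6 arrays. PTK2, which encodes focal adhesion kinase, read 11.93 to 12.41, and its groups overlapped. PARVA, the parvin that binds ILK and paxillin, read 7.69 and 7.42 in scramble, 7.56 and 7.06 with shRNA 1, and 7.05 and 6.80 with shRNA 2. With the block PARVA was called in the mean (-0.44, adjusted p 0.184, 0.0266 blocked), with shRNA 2 (-0.63, adjusted p 0.0861, 0.00969 blocked) and between the shRNAs (0.39, adjusted p 0.218, 0.0331 blocked). The untested PARVB and LIMS1 were at 2.69 to 2.73 and 2.42 to 2.95.

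**Figure D2:**
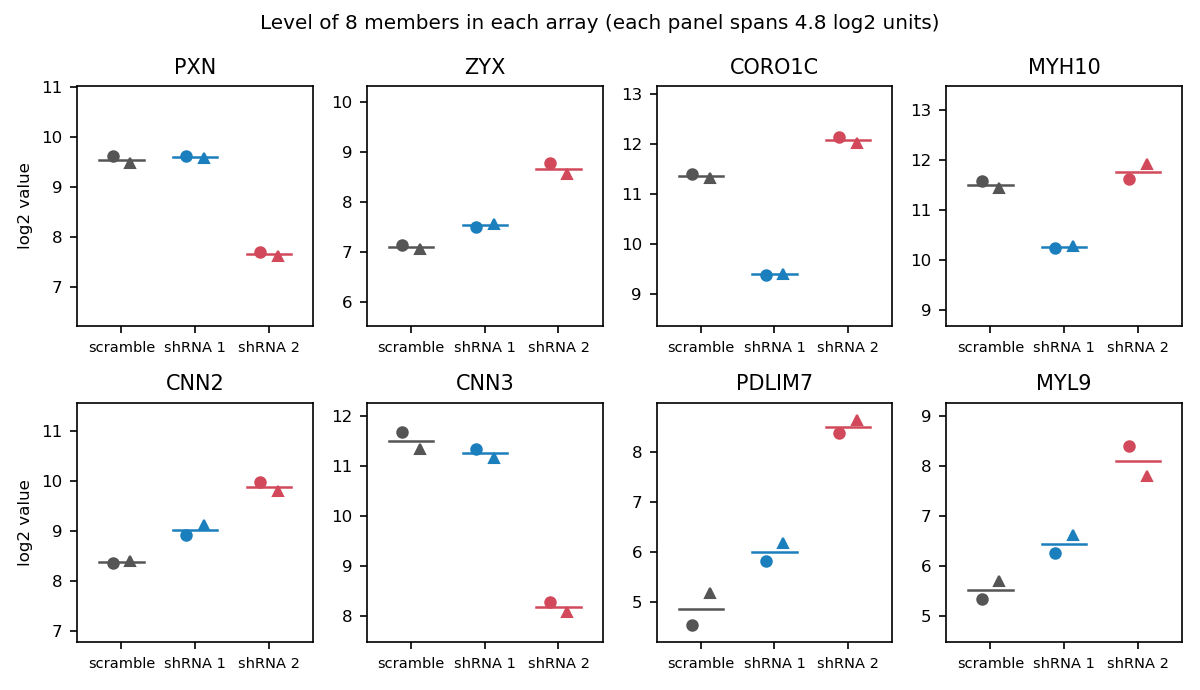
Log2 value of PXN, ZYX, CORO1C, MYH10, CNN2, CNN3, PDLIM7 and MYL9 in each array, with circles for replicate 1, triangles for replicate 2 and a bar at the group mean; all panels span the same range of log2 units. PXN and CNN3 are lowest with shRNA 2, CORO1C and MYH10 are lowest with shRNA 1, and ZYX, CNN2, PDLIM7 and MYL9 are lowest in scramble and highest with shRNA 2.

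Actin regulators and crosslinkers were called most often between the shRNAs, 10 of 11, 7 lower and 3 higher with shRNA 1. In that comparison 41.1% of all tested genes were called, 23.3% lower and 17.8% higher. With shRNA 2 against scramble 5 of the 11 were called, 3 higher and 2 lower, where 31.0% of all tested genes were called. With shRNA 1 against scramble CORO1C was lower and ENAH higher, where 11.5% of all tested genes were called. CORO1C encodes coronin 1C, which acts in the turnover of branched actin at the cell edge. It was at 11.40 and 11.32 in scramble, 9.38 and 9.40 with shRNA 1, and 12.13 and 12.02 with shRNA 2. The replicates were close and the groups far apart, with shRNA 1 lowest and shRNA 2 highest. It fell 3.91-fold with shRNA 1 (log2 -1.97, SE 0.11, adjusted p 0.00475) and rose 1.64-fold with shRNA 2 (log2 0.71, SE 0.11, adjusted p 0.0104). The difference between the shRNAs was 6.42-fold (log2 -2.68, adjusted p 0.00112), and a second CORO1C probe set gave -2.84, 0.89 and -3.73 for the same contrasts. The mean of both shRNAs, -0.63 (adjusted p 0.0228), averages these opposite changes.

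The Ena/VASP genes encode anti-capping proteins that lengthen actin filaments at adhesions and leading edges. ENAH, VASP and EVL were each called between the shRNAs, VASP and EVL less firmly. ENAH, which encodes Mena, read 10.84 and 10.92 in scramble, 11.42 and 11.45 with shRNA 1, and 10.21 and 10.30 with shRNA 2. It was highest with shRNA 1 and lowest with shRNA 2. The rise of 0.55 with shRNA 1 (adjusted p 0.0366), the fall of 0.63 with shRNA 2 (adjusted p 0.0133; SE 0.11 each) and the difference of 1.18 (adjusted p 0.00192) were called. Of the 4 other ENAH probe sets above the minimum, 2 gave the same signs in all of these contrasts. Another gave 1.40 with shRNA 1 and 0.01 with shRNA 2, and the dimmest gave -0.37, 0.17 and -0.54. With the mean of all 6 ENAH probe sets, of which 5 reached the minimum, the calls against scramble were lost (adjusted p 0.132 and 0.12). Without probe sets that can cross-hybridise the shRNA 1 call was also lost (adjusted p 0.115).

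VASP read 9.06 and 9.42 in scramble, 9.17 and 9.42 with shRNA 1, and 8.20 and 8.74 with shRNA 2. EVL read 8.13 and 8.51 in scramble, 7.96 and 8.35 with shRNA 1, and 8.81 and 9.25 with shRNA 2. For both genes scramble and shRNA 1 overlapped, and shRNA 2 was lowest for VASP and highest for EVL. The difference between the shRNAs was 0.82 for VASP (SE 0.24, adjusted p 0.0445) and -0.87 for EVL (SE 0.24, adjusted p 0.0386). With 1 array left out it ran from 0.55 to 1.09 for VASP and from -1.09 to -0.65 for EVL. Each call was lost whichever single array was left out. In limma without the filter on dim genes both calls were lost (adjusted p 0.179 for VASP and 0.163 for EVL). Replicate 1 was below replicate 2 in every group for both, and with the block each was also called with shRNA 2 (VASP -0.77, 0.00575 blocked; EVL 0.71, 0.00404 blocked) and in the mean (VASP -0.36, 0.0429 blocked; EVL 0.27, 0.0466 blocked). Unblocked, those adjusted p-values ran from 0.0638 to 0.418.

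The alpha-actinins crosslink filaments into bundles. ACTN1 was at 12.60 and 12.61 in scramble, 12.93 and 12.83 with shRNA 1, and 13.44 in both shRNA 2 arrays. The groups did not overlap. ACTN1 rose 1.78-fold with shRNA 2 (log2 0.83, SE 0.10, adjusted p 0.00672), the 0.27 with shRNA 1 was not called (adjusted p 0.159), and the shRNAs differed by -0.56 (adjusted p 0.0117). ACTN4 read 9.41 and 9.46 in scramble, 9.01 and 9.25 with shRNA 1, and 9.70 and 9.92 with shRNA 2. It was lower with shRNA 1 than with shRNA 2 (log2 -0.68, SE 0.14, adjusted p 0.0174), with scramble between them. The 0.38 of ACTN4 with shRNA 2 was called only with the block (adjusted p 0.103, 0.0305 blocked).

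PDLIM genes encode PDZ-LIM proteins that sit on alpha-actinin along stress fibres. PDLIM7 read 4.54 and 5.18 in scramble, 5.81 and 6.17 with shRNA 1, and 8.37 and 8.64 with shRNA 2. The groups did not overlap and lay in that order from low to high. With shRNA 2 the rise was 12.5-fold (log2 3.65, SE 0.26, adjusted p 0.00325), the largest rise among the 33 tested members in that comparison. The 1.13 with shRNA 1 was called only with the block (adjusted p 0.0589, 0.00784 blocked), and the shRNAs differed by -2.52 (adjusted p 0.00282). This probe set and the other PDLIM7 probe sets above the minimum are of kinds that can cross-hybridise, and the others gave 2.65 and 1.66 with shRNA 2.

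PDLIM5 moved the other way, at 10.09 and 10.15 in scramble, 9.86 and 10.14 with shRNA 1, and 9.47 and 9.48 with shRNA 2. Only the shRNA 2 arrays lay apart. The fall with shRNA 2 was 0.65 (SE 0.13, adjusted p 0.0213) and the difference between the shRNAs was 0.52 (adjusted p 0.0298). With the mean of all 10 of its probe sets, of which 5 reached the minimum, both calls were lost. The differences were then -0.20 with shRNA 2 (adjusted p 0.14) and 0.07 between the shRNAs (adjusted p 0.532). Of its 4 other probe sets above the minimum, 4 had the same sign with shRNA 2 and 2 between the shRNAs. PDLIM5 was called in the mean of both only with the block (-0.39, adjusted p 0.0853, 0.0354 blocked).

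PDLIM1 was at 7.44 and 7.26 in scramble, 6.95 and 6.86 with shRNA 1, and 7.71 and 7.63 with shRNA 2. Scramble lay between the knockdown groups. The shRNAs differed by -0.76 (SE 0.12, adjusted p 0.00764), and with the block both single comparisons were called as well (-0.44 with shRNA 1, adjusted p 0.0799, 0.026 blocked; 0.32 with shRNA 2, adjusted p 0.102, 0.0364 blocked).

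CFL1 and PFN1 control the supply of actin: cofilin severs old filaments and profilin hands monomers to growing ones. CFL1 read 13.08 and 12.81 in scramble, 12.58 and 12.50 with shRNA 1, and 13.29 and 13.15 with shRNA 2. It was lower with shRNA 1 than with shRNA 2 (log2 -0.68, SE 0.14, adjusted p 0.0165), and the -0.41 with shRNA 1 against scramble was called only with the block (adjusted p 0.132, 0.039 blocked). PFN1 was at 13.02 and 12.63 in scramble, 12.69 and 12.29 with shRNA 1, and 13.12 and 12.77 with shRNA 2, and its groups overlapped. PFN1 was called in no comparison without the block. With it, the -0.34 with shRNA 1 (adjusted p 0.395, 0.0437 blocked) and the -0.46 between the shRNAs (adjusted p 0.17, 0.00966 blocked) passed.

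Among contractile genes, 4 of 9 were called with shRNA 2, 3 higher and 1 lower, and 2 with shRNA 1, 1 each way. Between the shRNAs 6 were called, 5 of them lower with shRNA 1. The shares of all tested genes called were 31.0%, 11.5% and 41.1% in the same order. The calponins, which bind actin and restrain myosin sliding, parted from each other. CNN2 was at 8.36 and 8.39 in scramble, 8.91 and 9.12 with shRNA 1, and 9.97 and 9.79 with shRNA 2. CNN3 read 11.68 and 11.34 in scramble, 11.34 and 11.17 with shRNA 1, and 8.29 and 8.08 with shRNA 2. CNN2 was lowest in scramble with no overlap, while for CNN3 the shRNA 1 arrays lay near the lower scramble array and the shRNA 2 arrays far below all others.

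CNN2 rose 1.56-fold with shRNA 1 (log2 0.64, SE 0.13, adjusted p 0.0441) and 2.84-fold with shRNA 2 (log2 1.51, SE 0.13, adjusted p 0.00385), and the shRNAs differed by -0.87 (adjusted p 0.00695). Its only probe set above the minimum is of a kind that can cross-hybridise. In limma without the filter on dim genes the shRNA 1 call of CNN2 was lost (adjusted p 0.116). CNN3 fell 10.0-fold with shRNA 2 (log2 -3.32, SE 0.17, adjusted p 0.00237), the largest fall among the 33 tested members in that comparison. The -0.25 with shRNA 1 was not called (adjusted p 0.387), and the shRNAs differed by 3.07 (adjusted p 0.00113). A second CNN3 probe set gave -2.83 with shRNA 2 and -0.04 with shRNA 1. CNN1, the smooth muscle calponin, was at 2.24 in all 6 arrays.

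MYL9 and the myosin heavy chains make up non-muscle myosin II, the motor of stress fibres. MYL9, a regulatory light chain, was at 5.33 and 5.70 in scramble, 6.25 and 6.61 with shRNA 1, and 8.40 and 7.79 with shRNA 2. The groups did not overlap. It rose 5.96-fold with shRNA 2 (log2 2.58, SE 0.27, adjusted p 0.00495), the 0.91 with shRNA 1 was not called (adjusted p 0.0958, 0.0669 blocked), and the shRNAs differed by -1.66 (adjusted p 0.00818).

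MYH10, the heavy chain of myosin IIB, read 11.58 and 11.44 in scramble, 10.24 and 10.28 with shRNA 1, and 11.62 and 11.93 with shRNA 2. Only the shRNA 1 arrays were low. It fell 2.37-fold with shRNA 1 (log2 -1.25, SE 0.14, adjusted p 0.0138), the 0.27 with shRNA 2 was not called (adjusted p 0.221), and the shRNAs differed by -1.51 (adjusted p 0.00228). A second MYH10 probe set gave -1.53 with shRNA 1 and -0.02 with shRNA 2. In the mean of both, -0.49 was called only with the block (adjusted p 0.0652, 0.0352 blocked).

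MYH9, the heavy chain of myosin IIA, was at 8.66 and 8.51 in scramble, 8.34 and 8.20 with shRNA 1, and 9.14 and 8.84 with shRNA 2. The order was shRNA 1, scramble, shRNA 2, with no overlap. It was lower with shRNA 1 than with shRNA 2 (log2 -0.71, SE 0.15, adjusted p 0.0177), and the 0.40 with shRNA 2 against scramble was called only with the block (adjusted p 0.103, 0.0235 blocked).

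Tropomyosins coat actin filaments and set which myosins may bind. TPM4 read 9.38 and 8.66 in scramble, 8.60 and 8.04 with shRNA 1, and 10.79 and 10.07 with shRNA 2. The shRNA 2 arrays were highest and shRNA 1 lowest, and in each group replicate 1 was well above replicate 2. The rise with shRNA 2 was 2.66-fold (log2 1.41, SE 0.38, adjusted p 0.0439), and the shRNAs differed by -2.11 (adjusted p 0.011). In limma without the filter on dim genes both calls were lost (adjusted p 0.199 with shRNA 2 and 0.0807 between the shRNAs). The shRNA 2 call was also lost whichever single array was left out. With the block the -0.70 with shRNA 1 (adjusted p 0.293, 0.0113 blocked) and the 0.36 in the mean (adjusted p 0.503, 0.0318 blocked) were called too. The other TPM4 probe sets gave 1.44 and 1.64 with shRNA 2.

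TPM1 was at 12.18 and 11.95 in scramble, 13.19 and 12.53 with shRNA 1, and 12.53 and 12.30 with shRNA 2. All knockdown arrays were above scramble, and no comparison was called. With the block the 0.80 with shRNA 1 (adjusted p 0.11, 0.021 blocked), the 0.57 in the mean (adjusted p 0.142, 0.0282 blocked) and the 0.45 between the shRNAs (adjusted p 0.211, 0.0497 blocked) passed. Of the 4 other TPM1 probe sets above the minimum, 3 gave the opposite sign between the shRNAs (-0.80, -3.24 and -0.47) and 1 the same sign (0.57). The one farthest off read 7.45 and 6.86 in scramble, 8.19 and 7.35 with shRNA 1, and 11.19 and 10.83 with shRNA 2.

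TPM2 read 12.62 to 13.00 over all arrays by its brightest probe set, and only its 0.34 with shRNA 2 passed with the block (adjusted p 0.0577, 0.0285 blocked). The other TPM2 probe set above the minimum read 6.56 and 6.16 in scramble, 7.36 and 7.26 with shRNA 1, and 8.01 and 8.74 with shRNA 2. Its log2 differences were 0.95 with shRNA 1 and 2.01 with shRNA 2, so the size for TPM2 depended on the probe set. TAGLN2, a calponin relative, ran from 9.46 to 10.36, with gaps between replicates larger than those between groups, and it passed in no comparison. TAGLN, its smooth muscle relative, was at 2.96 and 2.83 in scramble, 3.96 and 3.65 with shRNA 1, and 3.13 and 3.25 with shRNA 2, below the minimum for testing in every array.

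**Figure D3:**
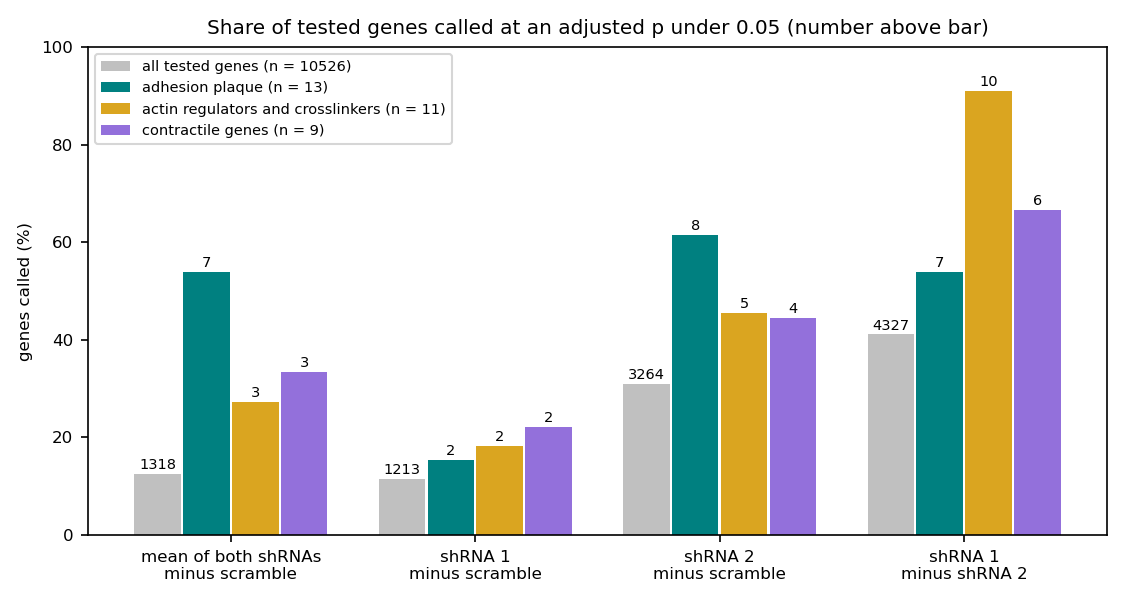
Bars give the percentage of tested genes called at an adjusted p under 0.05 in each comparison, for all tested genes in grey and for the members by role, with the number called above each bar. In shRNA 1 against shRNA 2 the bar of actin regulators and crosslinkers, 10 of 11, is the tallest, and in shRNA 2 against scramble that of the plaque genes, 8 of 13.

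Across the roles the shares called were plaque 61.5%, actin regulators and crosslinkers 45.5% and contractile genes 44.4% with shRNA 2, against the 31.0% of all genes, and 15.4%, 18.2% and 22.2% with shRNA 1, against 11.5%. The median log2 difference with shRNA 2 was 0.20, 0.32 and 0.35 in the same order. Between the shRNAs it was -0.10, -0.68 and -0.71, so in the actin and contractile groups the typical member was lower with shRNA 1 than with shRNA 2. The shares called between the shRNAs were 53.8%, 90.9% and 66.7%, against 41.1% of all tested genes. Differences between the roles were not tested.

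Promoter sequence was read for the members because paralogues such as the calponins went apart. Windows of 250 bases before each annotated transcription start came from RefSeq on GRCh38.p14 and held 35 of the 39 members in 67 windows. Each was searched on both strands for the CArG box, for CCGCCC, the core of GC boxes, and for CATTCC, the TEAD core. The CArG box is the sequence recognised by the serum response factor SRF, which drives many contractile genes. A CArG box was found in 6 member windows (8.96%), 1 each for TES, LPP, ACTN1, FLNA, CNN2 and TPM4, where 1.16% of all 35116 windows and 1.04% of windows of tested genes held one. CCGCCC was in 46 member windows (68.7%; 42.6% of all windows and 64.6% of those of tested genes), and CATTCC in 10 (14.9%; 11.9% and 9.61%). A match describes letters in the window and not a bound site.

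The windows of the calponins that went apart, of TPM4, and of PXN are printed to show these letters, 5′ to 3′, with the CArG box and CCGCCC (on either strand) in capitals.
CNN2, chr19:1026358-1026607, plus strand: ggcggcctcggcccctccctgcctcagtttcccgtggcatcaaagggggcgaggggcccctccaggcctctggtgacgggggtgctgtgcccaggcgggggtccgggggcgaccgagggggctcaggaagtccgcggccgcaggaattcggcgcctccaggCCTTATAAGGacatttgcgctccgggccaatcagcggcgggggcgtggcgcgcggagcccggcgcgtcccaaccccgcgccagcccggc
CNN3, chr1:94927111-94927360, minus strand: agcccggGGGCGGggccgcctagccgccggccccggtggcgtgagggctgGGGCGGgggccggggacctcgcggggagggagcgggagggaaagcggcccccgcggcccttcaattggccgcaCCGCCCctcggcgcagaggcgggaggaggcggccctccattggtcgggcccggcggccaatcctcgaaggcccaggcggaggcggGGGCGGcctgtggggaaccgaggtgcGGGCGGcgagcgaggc
TPM4, chr19:16067288-16067537, plus strand: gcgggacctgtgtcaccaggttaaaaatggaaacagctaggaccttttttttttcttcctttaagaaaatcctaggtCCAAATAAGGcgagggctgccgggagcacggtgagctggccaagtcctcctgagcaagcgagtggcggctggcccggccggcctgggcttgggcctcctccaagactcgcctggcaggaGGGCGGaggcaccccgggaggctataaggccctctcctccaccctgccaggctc
PXN, chr12:120265731-120265980, minus strand: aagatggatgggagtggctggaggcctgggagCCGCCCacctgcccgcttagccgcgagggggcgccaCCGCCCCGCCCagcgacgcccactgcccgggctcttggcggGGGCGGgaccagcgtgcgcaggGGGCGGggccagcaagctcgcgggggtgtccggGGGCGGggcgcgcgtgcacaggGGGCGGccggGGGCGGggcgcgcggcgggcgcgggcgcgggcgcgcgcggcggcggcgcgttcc
In CNN2 the CArG box began 89 bases before the start and in TPM4 173 bases before it. These windows of CNN3 and PXN had no CArG box, and had 5 and 8 matches to CCGCCC, neighbouring matches in PXN overlapping. Among members called with shRNA 2, TES, LPP, ACTN1, CNN2 and TPM4 had a CArG box, TES being lower and the others higher. Of those whose windows held none, ZYX, TLN1, TLN2, BCAR1, CORO1C and PDLIM7 were higher. PXN, CAV1, ENAH, PDLIM5 and CNN3 were lower, and MYL9 had no window. TPM4 was lower with shRNA 1 (log2 -0.70, called only with the block), and its other windows held no box. The box was not tested against direction.

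Of 40 other adhesion genes, 33 were tested, and 8 were called higher and 2 lower with shRNA 2, 1 higher and 3 lower with shRNA 1, and 3 higher and 1 lower in the mean. Without the block these are 30.3%, 12.1% and 12.1% of the list, near the 31.0%, 11.5% and 12.5% of all tested genes. With the block 18 of the 33 were called with shRNA 2, 19 with shRNA 1 and 10 in the mean, where 50.6%, 29.6% and 34.9% of all tested genes were called. With shRNA 1 the share of the list was then above that of all tested genes. The integrin beta chain ITGB1 fell by 1.24 with shRNA 1 (adjusted p 0.0311) and by 2.71 with shRNA 2 (adjusted p 0.00333), and the alpha chain ITGAV rose by 0.71 and 0.58 (adjusted p 0.0347 and 0.0275). The tensin TNS3 and the adaptor NCK2 rose with shRNA 2 by 1.25 and 0.54 (adjusted p 0.00845 and 0.0204).

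Of 17 myosin motor and light chain genes, 13 were tested, and limma called 0 in the mean of both, against 12.5% of all tested genes. In that comparison 5 had an unadjusted limma p under 0.05, and 7 were called with the block, against 34.9% of all tested genes. With shRNA 1, 3 were lower (23.1%, against 11.5% of all tested genes), and with shRNA 2, 2 were higher and 3 lower (38.5%, against 31.0%). With the block 4 were called with shRNA 1 and 8 with shRNA 2, where the background was 29.6% and 50.6%. MYO10, the filopodial myosin, fell by 1.81 with shRNA 1 (adjusted p 0.032), and MYO6 fell by 1.34 with shRNA 2 (adjusted p 0.00775). Of 18 SRF, MRTF and YAP genes, which encode transcription factors that respond to actin and tension and some of their targets, 16 were tested. In limma without the block, 6 were called lower with shRNA 2 (37.5%, against 31.0% of all tested genes), 2 with shRNA 1 (12.5%, against 11.5%) and 2 in the mean (12.5%, as over all tested genes), and none higher. With the block 1 was higher and 8 lower with shRNA 2, 2 higher and 4 lower with shRNA 1, and 2 higher and 8 lower in the mean. In the same order, the block called 50.6%, 29.6% and 34.9% of all tested genes in either direction. SRF fell by 0.96 with shRNA 1 (adjusted p 0.0342) and by 1.01 with shRNA 2 (adjusted p 0.0146), and TEAD1, a partner of YAP, fell by 1.53 with shRNA 2 (adjusted p 0.00505).

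**Figure D4:**
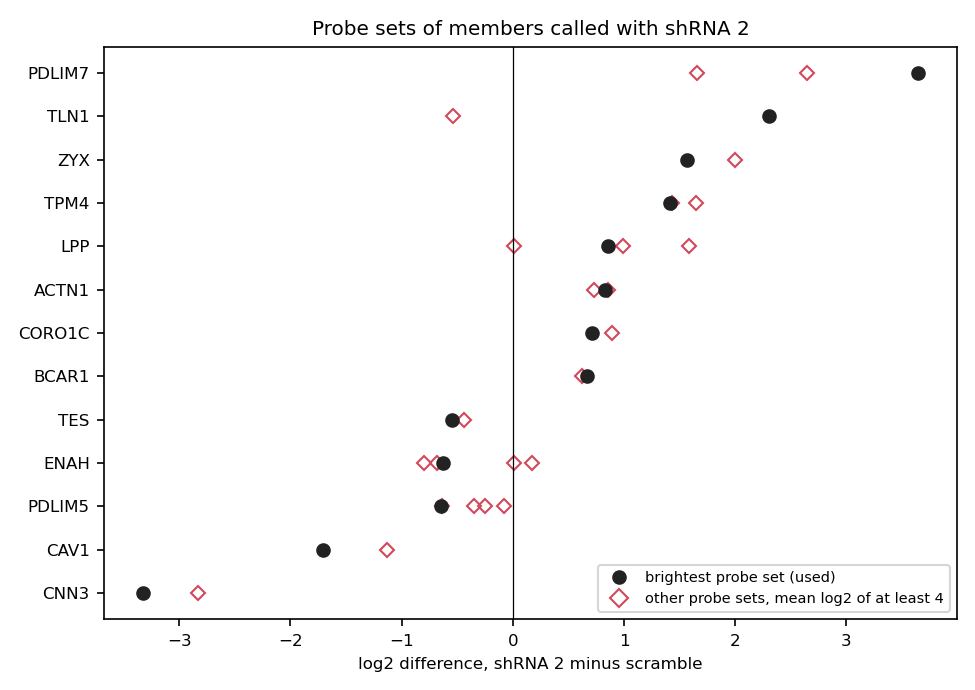
For the 13 members called with shRNA 2 that have another probe set with a mean of at least 4, the log2 difference from scramble is plotted for the probe set used (filled) and for the others (open). In 11 of the 13 all probe sets lie on the same side of 0, and TLN1 and ENAH are the exceptions. A PDLIM7 probe set reached the minimum only through shRNA 2, which fixed its side.

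Where a called member had another probe set above the minimum, all its probe sets had the sign of the brightest in 11 of 13 members with shRNA 2, in 3 of 4 with shRNA 1, in 8 of 9 in the mean and in 11 of 14 between the shRNAs. The exceptions were TLN1 in all but the shRNA 1 comparison, ENAH in both shRNA comparisons and between the shRNAs, and PDLIM5 between the shRNAs. A PDLIM7 probe set counted here, at 3.77 and 3.57 in scramble, 3.85 and 4.27 with shRNA 1, and 6.10 and 6.53 with shRNA 2, reached the minimum only through shRNA 2, so its sign there was fixed by the minimum.

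Replicates of the same number shared deviations in several members. Replicate 1 was above replicate 2 in all 3 groups for 14 of the 33 members (42.4%; 26.5% of all tested genes) and below it for 7 (21.2%; 29.0%). For TPM4 the gap was 0.72 in scramble, 0.56 with shRNA 1 and 0.72 with shRNA 2, and for TAGLN2 it was 0.82, 0.79 and 0.43. EVL had -0.38, -0.39 and -0.44. The labels do not say what separated the replicates.

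**Figure D5:**
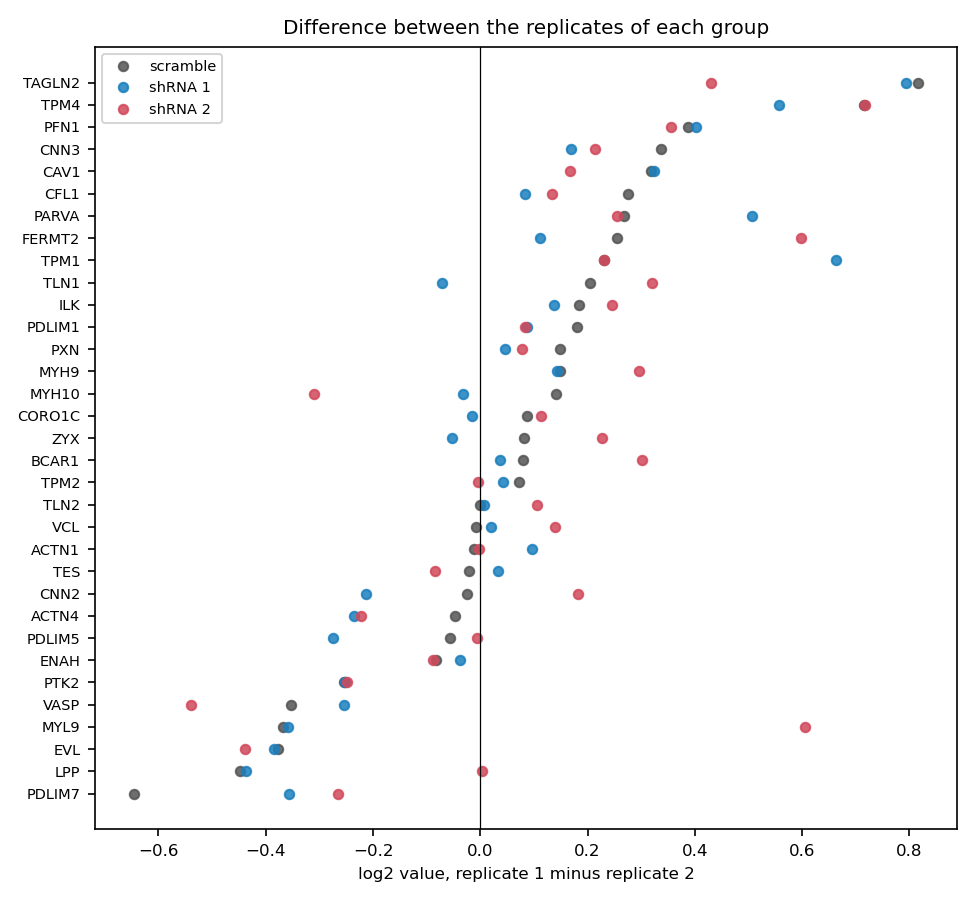
Each point is the log2 value of replicate 1 minus that of replicate 2 in 1 group, for the 33 tested members in order of the scramble gap. All 3 points lie to the right of 0 for 14 members, TAGLN2 and TPM4 among them, and to the left for 7, EVL and VASP among them.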

How the data were processed

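Affymetrix arrays measured total RNA of H1299 cells in 3 groups of 2. The authors processed the arrays with GCRMA (per the submitters' processing notes, which name no version), which models background by probe sequence, equalises the arrays and reduces each probe set to 1 value. The deposited values of the authors are on a log2 scale, judged by their range, with a floor at 2.24 that hides changes of dim genes.

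Of 54675 probe sets, 41091 carried 1 gene symbol in the platform annotation and 1801 carried several, which were not named. The brightest probe set per symbol gave 19775 genes, and the 10526 with a mean of at least 4 were fitted with limma 3.58.1 under R 4.3.3. A single model held all 6 arrays (3 residual and 2.09 prior degrees of freedom), and tests were two-sided with Benjamini-Hochberg adjustment over all tested genes. Each SE is limma's moderated one, and precision is limited by how few arrays there are. The procedure was tested on simulated data.

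Titles number the replicates. Across genes, the residuals of arrays sharing a number correlated at 0.75 (scramble and shRNA 1), 0.51 (scramble and shRNA 2) and 0.53 (both shRNAs), which marks same-numbered arrays as paired. The fit reported has no block, and blocked values stand beside it where the call changed. The alternatives were other probe set choices, filters and normalizations, limma-trend, the block and leaving out each array.

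Every member called in at least 1 comparison is described with all arrays. From each list of other genes, up to 4 called genes were named in order of adjusted p for both shRNAs averaged, or 2 where none passed. One of these lists is not reported here. The members and lists were chosen with earlier results of these data known.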

Additional observations from a re-analysis of the deposited data

Results flagged for a closer look

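The effect of the shRNAs against the same scramble differed in 23 of the 33 tested members (limma, shRNA 1 minus shRNA 2, adjusted p under 0.05), where 41.1% of all tested genes differed. Among plaque genes the log2 difference was 1.94 for PXN, 1.22 for CAV1, 0.82 for FERMT2, -1.14 for ZYX, -1.18 for ILK, -1.72 for TLN2 and -2.44 for TLN1. Among actin regulators and crosslinkers it was 1.18 for ENAH, 0.82 for VASP, 0.52 for PDLIM5, -0.56 for ACTN1, -0.68 for ACTN4, -0.68 for CFL1, -0.76 for PDLIM1, -0.87 for EVL, -2.52 for PDLIM7 and -2.68 for CORO1C. In the contractile group it was 3.07 for CNN3, -0.71 for MYH9, -0.87 for CNN2, -1.51 for MYH10, -1.66 for MYL9 and -2.11 for TPM4. TLN2 reached the minimum for testing only through its high shRNA 2 arrays, which fixes the direction of its difference. Opposite signs came from the other TLN1 probe set above the minimum, 0.38, and from the dimmest such ENAH probe set, -0.54. With probe sets averaged PDLIM5 gave 0.07 and FERMT2 0.55, neither called (limma adjusted p 0.532 and 0.0989). KDM5A itself was 0.65 higher with shRNA 1, and its part in these differences was not tested.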

How the results depend on the processing

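The 59 member calls kept their direction under every alternative that used 1 value per gene, and the changes of sign came from single probe sets. All 59 stayed called with quantile normalization, limma-trend, the replicate block and without tied floor values. With median centring 58 did (ILK with shRNA 1 was lost). When all of a gene's probe sets were averaged, those at the floor or below the minimum included, 44 of 53 did. Without probe sets prone to cross-hybridise 42 of 43 did. Without the filter on dim genes, members called were 7 in the mean, 2 with shRNA 1 and 15 between the shRNAs, where 332, 311 and 2477 of all 19775 genes were called. With the replicate block they were 21 in the mean, 15 with shRNA 1 and 26 with shRNA 2. When any single array was left out, calls fell over all tested genes in each comparison, and the members called fell as well. Leaving out 1 array gave 0 to 6 in the mean, 0 to 2 with shRNA 1, 9 to 16 with shRNA 2 and 13 to 19 between the shRNAs, and the changes of KDM5A then ran from -2.404 to -2.328 in the mean, -2.12 to -1.96 with shRNA 1 and 0.58 to 0.73 between the shRNAs, with adjusted p up to 0.11, 0.0639 and 0.0628. Without probe sets prone to cross-hybridise, the KDM5A difference between the shRNAs was 0.30. The cause was not tested. Signs turned with other probe sets: TLN1 gave -0.35 in the mean, -0.54 with shRNA 2 and 0.38 between the shRNAs; ENAH gave -0.37 with shRNA 1, 0.17 and 0.012 with shRNA 2 and -0.54 between the shRNAs; PDLIM5 gave -0.054 and -0.18 between the shRNAs. The called members ZYX, FERMT2, PDLIM1, PDLIM7, CNN2, MYL9 and MYH9 have only probe sets prone to cross-hybridise above the minimum. The alternative without such probe sets therefore gave them no value.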
